A study of Mus musculus with 24 samples.

Results

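The 7 genes described here, Pnpla2, Lipe, Mgll, Abhd5, G0s2, Adrb3 and Pde3b, encode the enzymes of lipolysis and 4 of its regulators, and were chosen by name out of the 26995 gene symbols in the count tables. They were followed in 3T3-L1 cells, a mouse embryonic fibroblast line that turns into adipocytes when a hormone cocktail is added, in the presence of DMSO (the vehicle) or of 0.5 µM ML-792, an inhibitor of SAE1/2, the enzyme that activates SUMO for conjugation to proteins. Cells were harvested 2 days before induction (day −2, pre-adipocytes) and 1, 3 and 7 days after it (clonal expansion to mature adipocytes), which with 3 replicates, lettered A, B and C, gave 24 libraries in 8 conditions. All induced cells received dexamethasone, insulin and 3-isobutyl-1-methylxanthine (IBMX), and from day 3 a medium with insulin alone. How long ML-792 had been present at the day −2 harvest is not given in the sources used here. All cells were given 100 µM 4-thiouridine for the last 45 min, so that each library held total reads and, among them, labelled reads with at least 1 T-to-C conversion, which stand for RNA made during the pulse, although a sequencing error can also give such a read. The study asked how blocking sumoylation alters gene expression along this course. The cells are 1 established line and the reads cover only the 3′ ends of mRNAs.

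Lipolysis breaks the triglyceride of the lipid droplet into glycerol and fatty acids. Adipose triglyceride lipase, the product of Pnpla2, removes the first fatty acid, hormone-sensitive lipase (Lipe) acts on the diglyceride and monoglyceride lipase (Mgll) on the last intermediate. Abhd5 (CGI-58) activates adipose triglyceride lipase and G0s2 binds and inhibits it. Adrb3, the β3-adrenergic receptor, raises cyclic AMP, which through protein kinase A drives the pathway, while the phosphodiesterase Pde3b lets insulin lower cyclic AMP and so restrain it. IBMX in the induction cocktail is itself an inhibitor of phosphodiesterases.

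Because the libraries were primed from the poly(A) tail, each gene is measured through the end of its 3′ untranslated region. The last 30 bases of the 7 counted regions are printed here to show where each region ends; a read may lie anywhere in the region. They are given on the mRNA strand, 5′ to 3′, from the mm10 genome, with the polyadenylation signal AATAAA in capitals where present.
Pnpla2: tgaggcaaagtagagttcaccatggtttcc
Lipe: tttgctcacaaacaaaaccacctaatatgc
Mgll: accgtAATAAAaaccacgtgcttttggaga
Abhd5: attttacagAATAAActcgacagtgctagc
G0s2: cattttgaAATAAAaaccttttatactcta
Adrb3: aaatcaaattAATAAAtattattgaatgtg
Pde3b: ctaagtAATAAAattttaactgataatcta
The windows are chr7:141460714-141460743 (plus strand) for Pnpla2, chr7:25379527-25379556 (minus) for Lipe, chr6:88828331-88828360 (plus) for Mgll, chr9:122381494-122381523 (plus) for Abhd5, chr1:193272160-193272189 (minus) for G0s2, chr8:27225776-27225805 (minus) for Adrb3 and chr7:114537908-114537937 (plus) for Pde3b. AATAAA was found in 5 of the 7 windows, starting 20 to 25 bases before the end, and neither it nor ATTAAA in those of Pnpla2 and Lipe. The search was on the mRNA strand only, and AATAAA was held by 21.3% of the 82450 distinct ends of that length in the tables. The counted regions were 303 (G0s2) to 2584 (Mgll) bases long. No counted region of another gene overlapped them, but that of Lipe overlaps the annotated gene 4732471J01Rik. Of the mean of 9525.5 reads counted for Lipe, 9449.8 were also counted in a shorter entry of 316 bases that stops before the window shown, and for Pde3b 187 of 308 were also counted in one of 1609 bases. Abhd5 has a second entry with equal counts, which could not be told apart from the first.

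The libraries held 13554718 to 27013352 total reads and 115709 to 820046 labelled reads in 3′ untranslated regions. Libraries of 1 condition correlated with r between 0.956 and 0.983 over the entries tested, and no 2 were identical. The summed level of 8 adipocyte markers, none of them among the 7 genes, went from 22736 to 24295 normalised reads in the DMSO libraries of day −2 to 652475 to 727690 at day 7, while 7 pre-adipocyte and fibroblast markers went from 260381 to 288634 down to 15452 to 22402. Single genes weighed heavily in these sums. Lpl averaged 20988 in DMSO at day −2 and 324889 at day 7, and Col1a1 averaged 151247 and 11873. Of 4 macrophage markers Ptprc was at 0 in every library, while Cd14 reached 368 normalised reads and the sum of the 4 lay between 26.3 and 377. The share of reads that were labelled averaged 3.17% ± 0.485 (SD, n = 3) at day −2 in DMSO and 1.27% ± 0.0798, 1.03% ± 0.115 and 1.03% ± 0.0869 at days 1, 3 and 7.

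All 3 lipases rose during differentiation in DMSO. Pnpla2, measured as normalised total reads (counts scaled to the mean effective library size), stood at 577, 480.2 and 694 in replicates A, B and C at day −2 and at 3103, 2636 and 3248 at day 1. It reached 29066, 23556 and 35298 at day 3 and 48062, 47064 and 46102 at day 7. No library of a later day overlapped those of day −2, and the log2 fold change against day −2 was 2.36 (SE 0.20, edgeR adjusted p = 6.6e-07) at day 1, 5.65 at day 3 and 6.33 (SE 0.24, edgeR adjusted p = 3.0e-11) at day 7. Lipe rose on the same days, with 245, 202 and 226 normalised reads at day −2, 1358, 874 and 1427 at day 1, 17179.5, 16071 and 22835 at day 3 and 26185, 30581 and 26149 at day 7. Its log2 fold change was 2.44 (SE 0.22, edgeR adjusted p = 1.1e-06) at day 1 and 6.94 (SE 0.26, edgeR adjusted p = 3.6e-11) at day 7. Mgll was not called at day 1. It held 12.3, 15.2 and 5.33 normalised reads at day −2 and 12, 17.3 and 9.90 at day 1, overlapping sets, with a log2 difference of 0.24 (95% interval −0.59 to 1.08). At day 3 it had 468, 422 and 337 and at day 7 859.8, 1318 and 822, a log2 fold change against day −2 of 5.21 (SE 0.35, edgeR adjusted p = 1.2e-08) and 6.50 (SE 0.36, edgeR adjusted p = 1.4e-09). In bulk libraries such as these, a larger number of cells expressing a gene and more of its RNA per cell cannot be told apart.

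The activator and the inhibitor of adipose triglyceride lipase also rose. Abhd5 was present from the start, at 1118, 1042 and 988 normalised reads, rose to 3598, 3708 and 3153 at day 1 and 8554, 7203 and 8317 at day 3 and stood at 5863, 6945 and 5759.9 at day 7. Its log2 fold changes against day −2, 1.73 (SE 0.16, edgeR adjusted p = 1.5e-06) at day 1, 2.93 at day 3 and 2.56 at day 7, were the smallest of the 7 genes at days 3 and 7. G0s2 was low at first, with 20.5, 39.3 and 14.2 normalised reads at day −2 and 56.1, 63.8 and 29.7 at day 1, a log2 difference of 1.01 (SE 0.37, edgeR adjusted p = 0.0644) that did not pass the threshold of 0.01, but did without the filter on low counts (adjusted p = 0.00207). Between day 1 and day 3 it went up to 7288, 8659.9 and 9431, the largest change of the 7 genes against day −2, 8.42 (SE 0.42, edgeR adjusted p = 6.6e-10). At day 7 it held 5533, 3205 and 5923, below all 3 libraries of day 3, with a log2 difference from day 3 of −0.79 (SE 0.30, edgeR adjusted p = 0.0889) that also missed the threshold and passed without the filter (adjusted p = 0.0038). Abhd5 at day 7 likewise lay below all its day 3 libraries. Its log2 difference was −0.37 (SE 0.16, edgeR adjusted p = 0.124) and passed the threshold without replicate B (adjusted p = 0.00625).

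Among the 7 genes, Adrb3 and Pde3b act on cyclic AMP, and both were called higher at day 7 than at day 3, as was Mgll. Adrb3 was counted with 3, 3 and 1 reads at day −2, 3, 1 and 1 at day 1, 38, 29 and 13 at day 3 and 436, 446 and 240 at day 7 in replicates A, B and C. With only 7 reads over the day −2 libraries, the pooled ratio of day 7 to day −2 was 204 (95% interval from counting error alone 98.8 to 509). Its fitted log2 difference was −0.42 (SE 0.83, edgeR adjusted p = 0.775) at day 1, and day 7 exceeded day 3 by 3.76 (SE 0.39, edgeR adjusted p = 9.5e-06), the largest step of the 7 genes in that interval. Pde3b went from 22.9, 17.0 and 21.3 normalised reads at day −2 to 74.5, 97.5 and 115 at day 1, 441, 424 and 345 at day 3 and 1249, 867 and 1278 at day 7. Each step lay outside the spread of the replicates, with log2 fold changes of 2.22 (SE 0.26, edgeR adjusted p = 1.4e-05) at day 1, 4.29 at day 3 and 5.78 at day 7 against day −2.

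**Figure D1:**
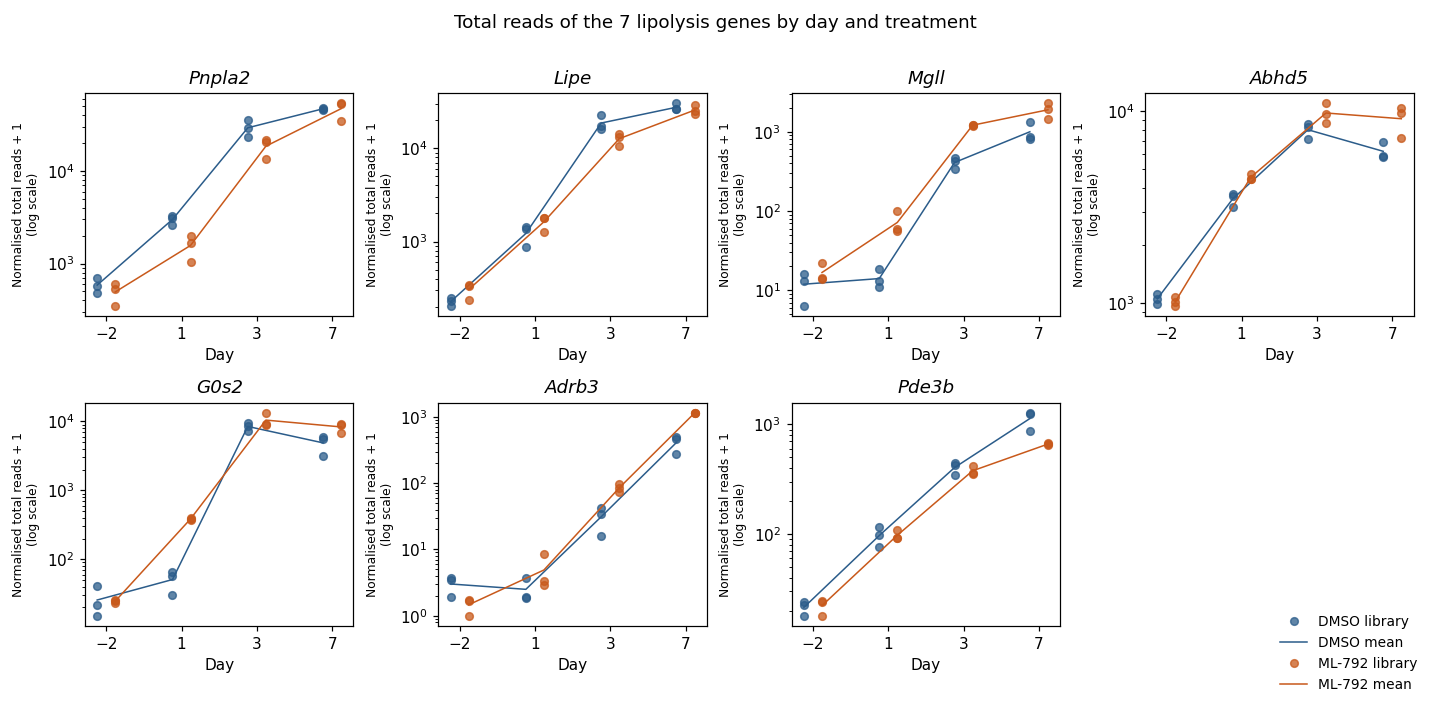
Normalised total reads plus 1 (log axis) of each gene against the day of differentiation (days evenly spaced), with a point per library and a line through the 3-replicate means, DMSO in blue and ML-792 in orange. All 7 genes end far above day −2, Mgll and G0s2 are already higher with ML-792 at day 1, and Adrb3 at day 7 averages 1145 with ML-792 and 410.4 in DMSO.

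Counted together, 4 of the 7 genes were called higher by day 1 in DMSO (Pnpla2, Lipe, Pde3b and Abhd5) and all 7 by days 3 and 7. None was called lower. Of the 26563 entries tested, 5.44% rose and 8.27% fell at day 1, 13.4% rose and 17.1% fell at day 3, and 15.5% rose and 17.1% fell at day 7. A gene can have several entries, while each of the 7 genes is 1 entry. Counting 1 entry per gene, 1058, 2319 and 2604 of 13331 rose at days 1, 3 and 7, larger shares. The median log2 fold change of the 7 genes was 1.73, 5.21 and 6.50 at days 1, 3 and 7, beside −0.01, −0.02 and −0.06 over all entries tested. Between days 3 and 7 Adrb3, Pde3b and Mgll rose, where 5.32% of all entries did. The log2 difference of Pde3b was 1.49 (SE 0.22, edgeR adjusted p = 2.1e-04) and that of Mgll 1.29 (SE 0.27, edgeR adjusted p = 0.0033). The calls of Pde3b and Mgll in that interval were lost without replicate A (adjusted p = 0.0221 and 0.0598) and without replicate C (0.0182 and 0.02), which left 1 of the 3 calls each time, while 5 of the 7 genes were called without replicate B. Pnpla2 and Lipe differed by 0.68 (SE 0.19, edgeR adjusted p = 0.0207) and 0.56 (SE 0.20, edgeR adjusted p = 0.0753) and did not pass the threshold of 0.01, which Pnpla2 passed with DESeq2 (adjusted p = 0.00573).

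None of the 7 genes was called between ML-792 and DMSO before induction. At day −2 edgeR called 0 of the 26563 entries tested, or 0% (348 had an unadjusted p under 0.05), and DESeq2 called 0, so none of the 7 genes, whose median log2 difference was −0.05. At the later days genes were called in both directions. Called higher with the inhibitor were Mgll at days 1, 3 and 7, G0s2 at days 1 and 7, Adrb3 at days 3 and 7 and Abhd5 at day 7. Pnpla2 was called lower at days 1 and 3 and Lipe at day 3, neither of them at day 7, and Pde3b was lower at day 7. At day 7 the genes with more RNA were those of a lipase, the activator, the inhibitor and the receptor. The summed adipocyte markers, mostly Lpl reads at day −2 in DMSO, were 35315 to 40723 normalised reads at day 1 with ML-792. In DMSO they were 41749 to 45295 that day. Fabp4 and Plin1, both among the 8, were nevertheless higher with ML-792 at day 1 (3641 ± 996 against 1745 ± 668 and 126 ± 16.7 against 59.9 ± 11.2, SD, n = 3). The sums were 412199 to 471373 at day 3 with ML-792 against 363687 to 511133 in DMSO, and 852451 to 911306 at day 7 against 652475 to 727690. The pre-adipocyte markers were 117254 to 158160 at day 1 against 143333 to 163891, 39430.1 to 41875 at day 3 against 16211 to 16994, and 25266 to 30591 at day 7 against 15452 to 22402. Among single markers at day 7, the means in ML-792 and DMSO were 187040 and 108095 for Adipoq and 257326 and 148433 for Fabp4. For Col1a1 they were 19821 and 11873. Lpl (326646 and 324889) and Cidec (74316 and 74057) were nearly equal. Lower with ML-792 were Cebpa (6859 and 7758), Retn (18750 and 22176.5), Dlk1 (1483 and 3109) and Fn1 (1766 and 2037). The other markers were higher. The part of these marker levels in the differences given next was not tested.

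Mgll held 58.8, 54.7 and 98.8 normalised reads with ML-792 at day 1, above all DMSO libraries of that day (12, 17.3 and 9.90). The log2 difference was 2.44 (SE 0.33, edgeR adjusted p = 2.2e-05). At day 3 it had 1226, 1173 and 1233 against 468, 422 and 337, a difference of 1.57 (SE 0.25, edgeR adjusted p = 1.0e-04), and at day 7 2301, 1913 and 1471 against 859.8, 1318 and 822, a difference of 0.92 (SE 0.24, edgeR adjusted p = 0.0188). The groups did not overlap on any of the 3 days. The day 7 call was lost without replicate A (adjusted p = 0.511). Over its own day −2 level, Mgll with ML-792 had risen at day 1 by a log2 fold change of 2.16 (SE 0.28, edgeR adjusted p = 6.1e-05).

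The largest of these differences was that of G0s2. At day 1 the ML-792 libraries held 368, 389.7 and 395 normalised reads and the DMSO libraries 56.1, 63.8 and 29.7, a log2 difference of 2.95 (SE 0.29, edgeR adjusted p = 4.1e-07). At day 3 the groups overlapped (8941, 9084 and 13358 against 7288, 8659.9 and 9431), with a log2 difference of 0.31 (95% interval −0.22 to 0.83). At day 7 they were apart again (9138, 6853 and 8987 against 5533, 3205 and 5923), by 0.77 (SE 0.26, edgeR adjusted p = 0.0766), a call lost without replicate A or C (adjusted p = 0.444 and 0.166). Its partner Abhd5 differed by 0.38 (95% interval 0.08 to 0.68) at day 1 and 0.29 (95% interval −0.01 to 0.59) at day 3 and was not called at either. At day 1 it was called with DESeq2 (adjusted p = 0.0629), with 1 entry per gene (0.0974) and without replicate B (0.0262). At day 7 Abhd5 held 10401, 7281 and 9795 normalised reads against 5863, 6945 and 5759.9, higher by 0.57 (SE 0.15, edgeR adjusted p = 0.0162). That call too was lost without replicate A or C (adjusted p = 0.462 and 0.385) and in a fit of the 6 libraries of the day alone (0.125).

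Pnpla2 went the other way. At day 1 it held 1657, 1047 and 2002 normalised reads with ML-792 and 3103, 2636 and 3248 in DMSO, a log2 difference of −0.93 (SE 0.24, edgeR adjusted p = 0.0232), and at day 3 21688, 13398 and 20538 and 29066, 23556 and 35298, a difference of −0.66 (SE 0.24, edgeR adjusted p = 0.0946). The groups did not overlap on either day. At day 7 they did (54149, 34380.3 and 53132 against 48062, 47064 and 46102), with a log2 difference of 0.00 (95% interval −0.49 to 0.50). Lipe was lower at day 3, with 14313, 10600.3 and 13196 normalised reads against 17179.5, 16071 and 22835 and a log2 difference of −0.56 (SE 0.20, edgeR adjusted p = 0.0809). Its log2 difference was 0.42 (95% interval 0.01 to 0.83) at day 1 and −0.10 (95% interval −0.51 to 0.30) at day 7. None of these 3 calls was made without replicate A or without replicate C, where the adjusted p of Pnpla2 was 0.367 and 0.138 at day 1 and 0.339 and 0.463 at day 3, and that of Lipe 0.26 and 0.577. With the 6 libraries of day 3 alone, Pnpla2 and Lipe were not called either (adjusted p = 0.142 and 0.161).

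The receptor was higher and the phosphodiesterase lower with ML-792. Adrb3 held 82.6, 97.5 and 71.9 normalised reads at day 3 with ML-792 and 41.6, 33.6 and 15.0 in DMSO, and 1149, 1154 and 1131 against 492, 465 and 274 at day 7. The groups were separate on both days, with log2 differences of 1.47 (SE 0.33, edgeR adjusted p = 0.00362) and 1.48 (SE 0.28, edgeR adjusted p = 0.00127). Both calls held without each replicate in turn. At day 1 only 11 reads with ML-792 and 5 in DMSO were counted over 3 libraries each, and a difference was not detectable at this depth. For Pde3b the log2 difference was 0.01 (95% interval −0.40 to 0.41) at day 1 and −0.10 (95% interval −0.48 to 0.28) at day 3, neither of them called. At day 7 it held 672, 663 and 650.1 normalised reads with ML-792 against 1249, 867 and 1278, all ML-792 libraries being lower, with a log2 difference of −0.77 (SE 0.18, edgeR adjusted p = 0.00827). That call was lost without replicate A or C (adjusted p = 0.233 and 0.239).

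**Figure D2:**
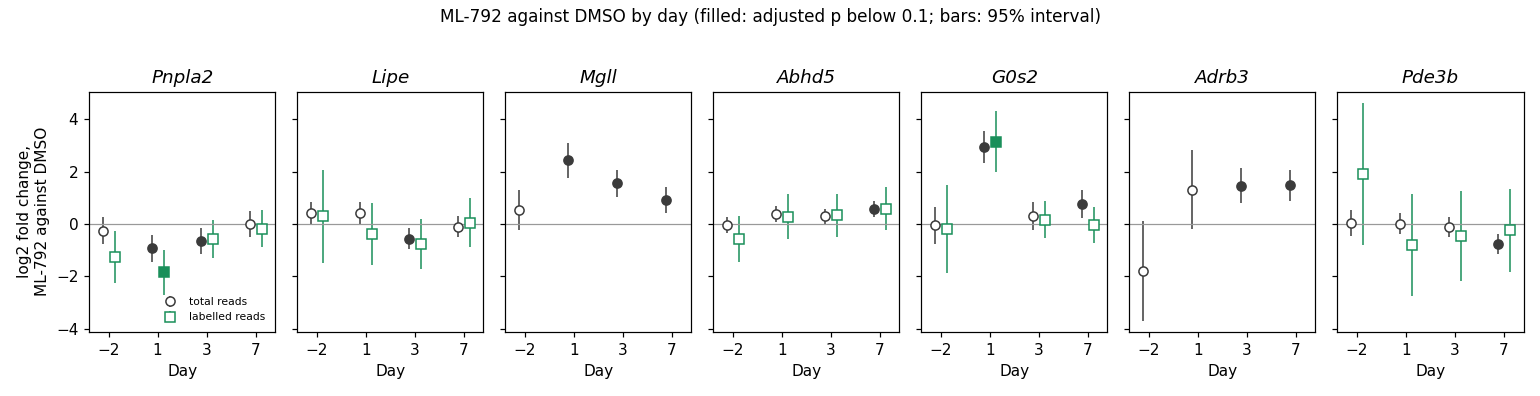
Log2 fold change of ML-792 against DMSO for each gene at each day (days evenly spaced), total reads as black circles and labelled reads as green squares, with 95% intervals and filled symbols where the adjusted p is under 0.1. G0s2 stands out at day 1 in both kinds of reads (2.95 and 3.15), Mgll decreases from 2.44 to 0.92 and Pnpla2 moves from below 0 to 0.00, while Mgll and Adrb3 have no labelled test.

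By count, 2 of the 7 genes were higher and 1 lower with ML-792 at day 1, 2 higher and 2 lower at day 3, and 4 higher and 1 lower at day 7. Of all entries tested, 3.05% were higher and 3.51% lower at day 1, 6.87% and 5.99% at day 3, and 5% and 4.6% at day 7. Counting 1 entry per gene, 595 of 13331 were higher and 616 lower at day 1, 1198 and 1088 at day 3, and 969 and 877 at day 7. The calls among the 7 genes numbered 2, 2 and 1 without replicate A, 4, 4 and 5 without replicate B and 2, 2 and 2 without replicate C. Whether the effect of ML-792 changed with the day was tested by an F-test of the 3 interaction terms, which passed for G0s2 (edgeR adjusted p = 8.7e-05), Mgll (0.0369) and Lipe (0.0598), 3 of 7 where 9.66% of all entries passed. At 1 entry per gene, 1848 of 13331 passed. The values of Pde3b (0.153), Adrb3 (0.188), Abhd5 (0.273) and Pnpla2 (0.29) missed the threshold of 0.1. With DESeq2 those of Pde3b (0.0740), Adrb3 (0.0984) and Abhd5 (0.0997) passed, and without the filter on low counts that of Pnpla2 (0.0622). Only G0s2 passed in every fit that left out a replicate. Mgll and Lipe did not pass without replicate A (adjusted p = 0.424 and 0.493) or without replicate C (0.311 and 0.643), and Pnpla2, Pde3b and Abhd5 did pass without replicate B (0.00366, 0.0459 and 0.00801). Single contrasts set the ML-792 difference at each later day against that at day −2, also at 0.1. Called were G0s2 and Mgll at day 1, Adrb3 and Lipe at day 3 and Adrb3 at day 7. The other genes and days were not called. Over all entries 487, 1301 and 860 of 26563 were called at days 1, 3 and 7. Without replicate A none of the 7 genes was called, and without replicate C only G0s2 at day 1.

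The 7 genes also rose within the ML-792 cells. At day 1, 6 of 7 were called above their own day −2 level, where 8.24% of all entries rose. At days 3 and 7 all 7 were called, where 16.3% and 16.7% rose. Counting 1 entry per gene, 1632, 2802 and 2811 of 13331 rose at days 1, 3 and 7. Pnpla2 rose at day 1 by a log2 fold change of 1.67 (SE 0.29, edgeR adjusted p = 5.2e-04), a call that was lost without replicate A or C (adjusted p = 0.0213 and 0.0307). Adrb3 was the exception at day 1, with 7, 2 and 2 reads against 0, 1 and 1 at day −2 and a fitted log2 fold change of 2.67 (SE 0.72, edgeR adjusted p = 0.0116). Over the 3 libraries Adrb3 went from 2 reads at day −2 to 2689 at day 7, a ratio of 2306 with a 95% counting interval of 638 to 19051.

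Labelled reads, which stand for RNA made in the last 45 min, could be tested for 5 of the 7 genes, since Mgll and Adrb3 were too sparse. All 24 libraries had 4-thiouridine, so the part of labelled reads that came from sequencing errors was not measured. Such errors would rise with the total reads of a gene. They were scaled by the total reads of their library, as in the study. The labelled share of the whole library fell along the course, so the median log2 fold change of all 10589 entries tested in labelled reads was −1.27, −1.70 and −1.54 at days 1, 3 and 7 in DMSO, and the changes below are read beside that shift. At day 3 in DMSO 4 of the 5 genes were called higher in labelled reads than at day −2, as at day 7. The median log2 fold change of the 5 was 4.54 and 5.53. Pnpla2 had 13, 5 and 16 labelled reads at day −2 in replicates A, B and C, 42, 27 and 55 at day 1, 132, 109 and 128 at day 3 and 174, 239 and 183 at day 7. It was the 1 gene called at day 1, with a log2 fold change of 1.88 (SE 0.43, edgeR adjusted p = 7.8e-04), a call lost without replicate A or C (adjusted p = 0.027 and 0.0125). Lipe had 21, 0 and 26 labelled reads at day 1 beside 1477, 960 and 1730 total reads, so that replicate B had none where the others had a share of 1.42% and 1.5%. A count of 0 in 960 reads allows a share of up to 0.313%. Without replicate B the labelled log2 fold change of Lipe at day 1 went from 2.69 (adjusted p = 0.018, not called) to 3.50 (5.3e-06, called), and it was also called without the filter on low counts (2.1e-04) and with all 24 libraries in 1 fit (0.00372), where the call of Lipe at day 1 with ML-792 was lost (0.0224).

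At day 7 Lipe had 134, 143 and 164 labelled reads against 4, 3 and 0 at day −2, a log2 fold change of 6.25 (SE 0.80, edgeR adjusted p = 2.1e-06). G0s2 had 3, 0 and 1 labelled reads at day −2, 1, 1 and 3 at day 1, 241, 211 and 262 at day 3 and 257, 164 and 228 at day 7. The total reads of G0s2 at day 1 had missed the threshold with a log2 difference of 1.01 (95% interval 0.22 to 1.80). Its labelled reads showed no detectable rise by day 1, where the log2 difference was 0.32 (95% interval −1.34 to 1.98). By day 3 they had risen by 7.73 (SE 0.57, edgeR adjusted p = 3.3e-16). Pde3b had 0, 1 and 0 labelled reads at day −2 and 16, 10 and 25 at day 7, a pooled ratio of 65.0 with a 95% counting interval of 11.2 to 2616. Its calls were lost without replicate A at day 3 (adjusted p = 0.0262) and without replicate C at days 3 and 7 (0.0226 and 0.0159). Abhd5, with 23, 26 and 23 labelled reads at day −2 and 26, 68 and 44 at day 7, was not called, at 1.16 (SE 0.47, edgeR adjusted p = 0.0355) and 1.27 (SE 0.47, edgeR adjusted p = 0.0233) on the log2 scale. With DESeq2 the day 7 value was called (adjusted p = 0.0087). Scaled by labelled reads alone, which removes the shift common to the library, Abhd5 was called, with 2.66 at day 3 and 2.68 at day 7. Mgll had no labelled read at days −2 and 1 in either treatment and 13, 2 and 1 at day 3 in DMSO, most of them in a single library.

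Of all entries tested in labelled reads, 0.567%, 1.84% and 1.73% rose in DMSO at days 1, 3 and 7. In numbers of entries the split of higher to lower calls was 60 to 2022, 195 to 3449 and 183 to 3010, and scaled by labelled reads 263 to 275, 667 to 507 and 587 to 504. Between days 3 and 7 none of the 5 genes was called in labelled reads, where edgeR called 0.236% of all entries (25 of 10589). The labelled reads of Pnpla2 were higher in all day 7 libraries than in those of day 3 (log2 difference 0.64, 95% interval −0.10 to 1.39), and the difference of Pde3b was 0.99 (−0.71 to 2.69). In ML-792 cells 2 of the 5 genes were called higher in labelled reads at day 1 (G0s2 and Lipe), 4 at day 3 and 5 at day 7. Of all entries 0.614%, 1.91% and 1.73% were. There the split of all calls was 65 to 2786, 202 to 3519 and 183 to 3989, and scaled by labelled reads 328 to 364, 720 to 595 and 693 to 554. Leaving out a replicate gave 1 to 3, 4 and 4 to 5 calls.

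**Figure D3:**
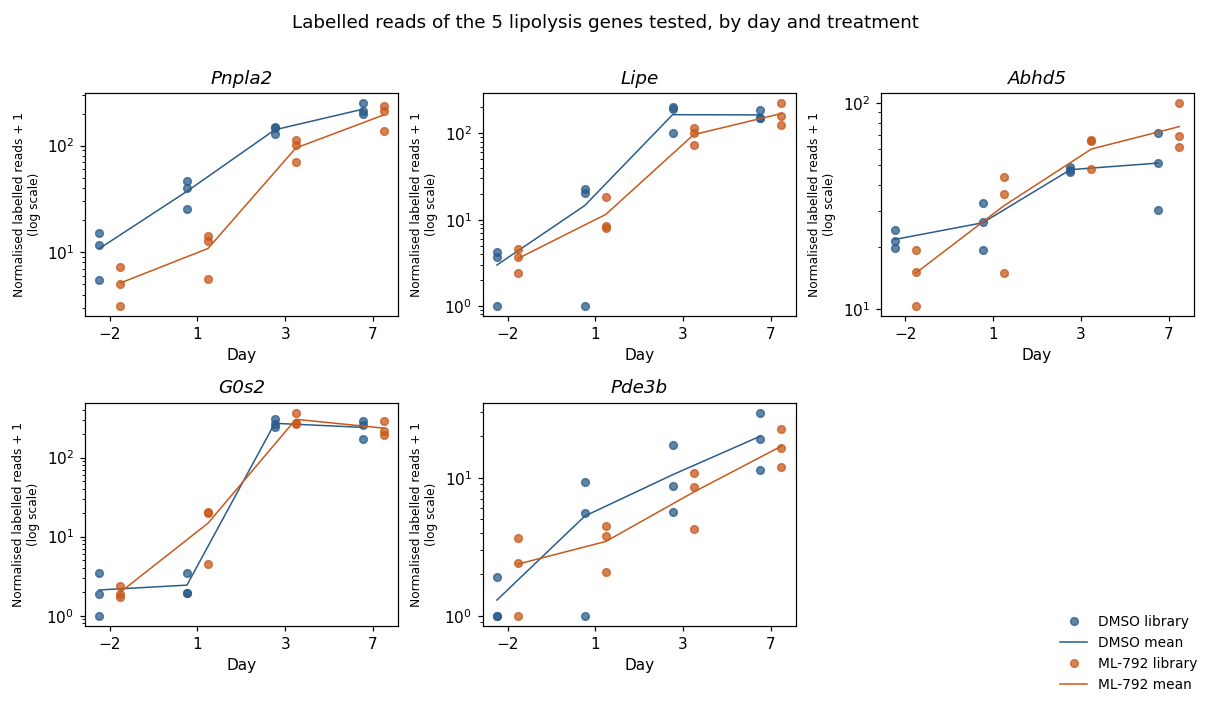
Normalised labelled reads plus 1 (log axis) of the 5 genes tested, by day (evenly spaced), a point per library and a line through the means, DMSO in blue and ML-792 in orange. At day 1 the Pnpla2 libraries with ML-792 lie below those in DMSO and 2 of the G0s2 libraries with ML-792 lie far above, while 1 Lipe library in DMSO has no labelled read.

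With ML-792 the labelled reads of 2 of the 5 genes differed from DMSO at day 1, and none was called on the other days. G0s2 had 18, 3 and 20 labelled reads with ML-792 against 1, 1 and 3 in DMSO, a log2 difference of 3.15 (SE 0.58, edgeR adjusted p = 9.2e-04), close to that of its total reads (2.95). Replicate B lay near the DMSO libraries, and the call was lost without replicate A (adjusted p = 0.171) and with the 6 libraries of the day alone (0.133). Pnpla2 had 11, 4 and 14 labelled reads with ML-792 against 42, 27 and 55 in DMSO, a log2 difference of −1.85 (SE 0.43, edgeR adjusted p = 0.015), and this call was lost without replicate A or C (adjusted p = 0.21 and 0.26). Before induction its labelled reads were already fewer, 7, 3 and 6 with ML-792 against 13, 5 and 16. The log2 difference was −1.26 (95% interval −2.25 to −0.26), not called. The whole library had a labelled share of 1.06% ± 0.0482 with ML-792 and 1.27% ± 0.0798 in DMSO at day 1, and its part in these differences was not tested. Of all entries tested in labelled reads, 0.132% were higher and 0.756% lower at day 1, 14 to 80 in numbers, and 36 to 40 when scaled by labelled reads. The median log2 difference of all entries was −0.30, −0.08 and −0.37 at days 1, 3 and 7. At days 3 and 7, 0.916% and 0.869% were called in either direction (38 to 59 and 5 to 87, or 66 to 66 and 35 to 51 scaled by labelled reads), with none of the 5 genes among them, and at day −2 edgeR called 0 of 10589, or 0% (75 had an unadjusted p under 0.05), as did DESeq2. The log2 difference of labelled G0s2 at day 7 was −0.03 (95% interval −0.73 to 0.67), where its total reads differed by 0.77. The interaction of day and treatment passed in labelled reads for G0s2 (0.0605), 1 of 5 where 0.246% of all entries passed, and not without replicate A or C (0.885 and 0.615).

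The labelled share of a gene divided by that of its library describes how large a part of its counted reads was labelled. The library share pools all reads, so abundant mRNAs weigh most in it and a ratio of 1 is not that of an average transcript. The ratio has no test here, and between genes it also depends on how many T bases the reads cover. G0s2 was above its library at days 3 and 7. Its relative share was 3.14, 3.06 and 3.17 at day 3 and 4.88, 5.76 and 4.08 at day 7 in DMSO, and 3.07 ± 0.269 (SD, n = 3) and 3.37 ± 0.451 with ML-792. Pde3b averaged above 1, at 2.33 ± 1.58 and 1.57 ± 0.433 in DMSO, from 4 to 25 labelled reads per library. Pnpla2 in DMSO stood at 0.501, 0.343 and 0.655 at day −2, from 5 to 16 labelled reads, and at 0.993, 0.774 and 1.03 at day 1. It then fell back to 0.432, 0.581 and 0.413 at day 3 and 0.380, 0.572 and 0.420 at day 7. After day 1 its total reads thus gained more than its labelled reads. With ML-792 the relative share of Pnpla2 was 0.658, 0.443 and 0.596 at day 1, below all DMSO libraries of that day. Lipe stood at 0.833 ± 0.139 at day 3 and 0.576 ± 0.0765 at day 7 in DMSO, and at 0.781 ± 0.0821 and 0.770 ± 0.118 with ML-792. Abhd5 stood at 0.574 ± 0.110 and 0.792 ± 0.319 in DMSO and at 0.625 ± 0.0623 and 0.988 ± 0.149 with ML-792. Mgll had 0 to 4 labelled reads per library at days 3 and 7 apart from 13 in replicate A of day 3 in DMSO, and Adrb3 0 to 5.

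**Figure D4:**
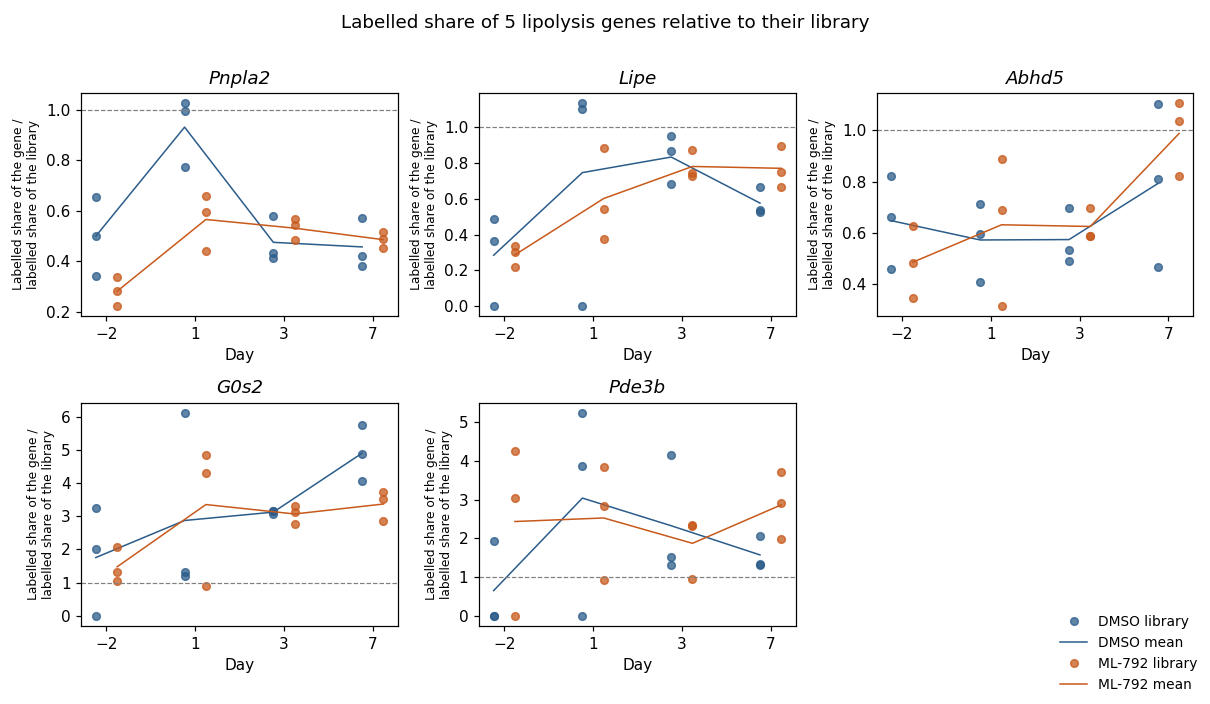
Labelled share of 5 genes divided by the labelled share of their library, by day (evenly spaced, linear axes that differ between panels), a point per library and a line through the means, DMSO in blue and ML-792 in orange, with a dashed line at 1, the share over all reads of the library pooled. G0s2 lies above 1 in every library of days 3 and 7, and Pnpla2 in DMSO averages 0.500 at day −2, 0.931 at day 1 and 0.457 at day 7.

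Across the 24 libraries, log2 total reads of the 7 genes correlated with each other at Pearson r between 0.741 (Abhd5 and Adrb3) and 0.986 (Pnpla2 and Lipe). All points share the same libraries and the rise over 4 days, so these r values describe the course and were not tested. Among 13330 genes, those most like Pnpla2 were Coq9 (r = 0.989), Acadvl (0.988) and Cluh (0.987), and those most like Lipe were Pcx (0.995), Acadvl (0.991) and C3 (0.987). Mgll was most like Cd36 (0.984), Decr1 (0.983) and Fam213a (0.980). G0s2 was most like Tmcc3 (0.995), Acsl1 (0.989) and Plin1 (0.982), and Abhd5 most like Adipor2 (0.972), Sik2 (0.970) and Nifk (0.970). Adrb3 was most like Adora1 (0.989), Slc13a4 (0.989) and Cfd (0.982). The genes nearest to Pde3b were C3 (0.982), Lipe (0.982) and Pcx (0.978).

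The rest of the lipolysis pathway, 56 other genes listed by role, of which Plin1, Cidec and Fabp4 are also among the adipocyte markers, moved in both directions. Of the 52 tested in total reads, 10 rose and 6 fell at day 1 in DMSO, 25 rose and 11 fell at day 3, and 25 rose and 11 fell at day 7, with a median log2 fold change of 1.1 at day 7. Over all entries tested the shares that rose and fell were 5.44% and 8.27%, 13.4% and 17.1%, and 15.5% and 17.1%. In the 8 lipid droplet proteins, 6 rose and 1 fell at day 7, led by Cidec, which promotes large droplets, at 9.10 (SE 0.32, edgeR adjusted p = 2.5e-11). Of 7 other lipid hydrolases 5 rose, led by Pnpla3, a close relative of Pnpla2, from 8.08 ± 4.48 to 4668 ± 938 normalised reads. Both genes of product export and binding rose, Fabp4, the fatty acid binding protein of adipocytes, by 7.18. Among stimulating receptors 2 of 3 rose, led by Tshr, the thyrotropin receptor, with 0.545 ± 0.945 normalised reads at day −2 and 102 ± 27.0 at day 7. Among inhibiting receptors 3 of 5 rose and 2 fell, led by Hcar2, a receptor for ketone bodies and niacin, with 0.298 ± 0.516 and 143 ± 16.6. The signalling part moved both ways. Of 8 G proteins and adenylyl cyclases 1 rose and 4 fell, led by Adcy7, from 80.4 ± 24.7 to 0.695 ± 1.20, and of 7 protein kinase genes 3 rose and 2 fell, led by Prkg1, the cyclic GMP-dependent kinase, at −4.42 (SE 0.86, edgeR adjusted p = 6.0e-04). In the insulin branch 3 of 8 rose and 1 fell, led by Pik3r1, a regulatory subunit of phosphoinositide 3-kinase, at 1.43 (SE 0.19, edgeR adjusted p = 1.3e-05). Of the 4 other phosphodiesterases none rose and 1 fell, and Pde3a, the close relative of Pde3b, held 0.818 ± 1.42 normalised reads at day −2 and 1.89 ± 2.35 at day 7.

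With ML-792, 4 of these 52 genes were higher and none lower at day 1. They were Plin2, Plin4 and Plin1, which coat the droplet, and Fabp4, named after their values were seen, with log2 differences of 1.26, 1.10, 1.07 and 1.06, on the day when G0s2 and Mgll were higher too. Over all entries 3.05% were higher and 3.51% lower that day. At day 3, 11 of the 52 were higher and 7 lower (6.87% and 5.99% over all entries), and at day 7, 7 were higher and 5 lower (5% and 4.6%). In labelled reads 29 of the 56 genes could be tested. In DMSO 6 rose and 9 fell at day 3, where 195 of all 10589 entries rose and 3449 fell, and 6 rose and 7 fell at day 7, where 183 rose and 3010 fell. With ML-792 1 was higher than in DMSO at day 1 and none was called at days 3 and 7.

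**Figure D5:**
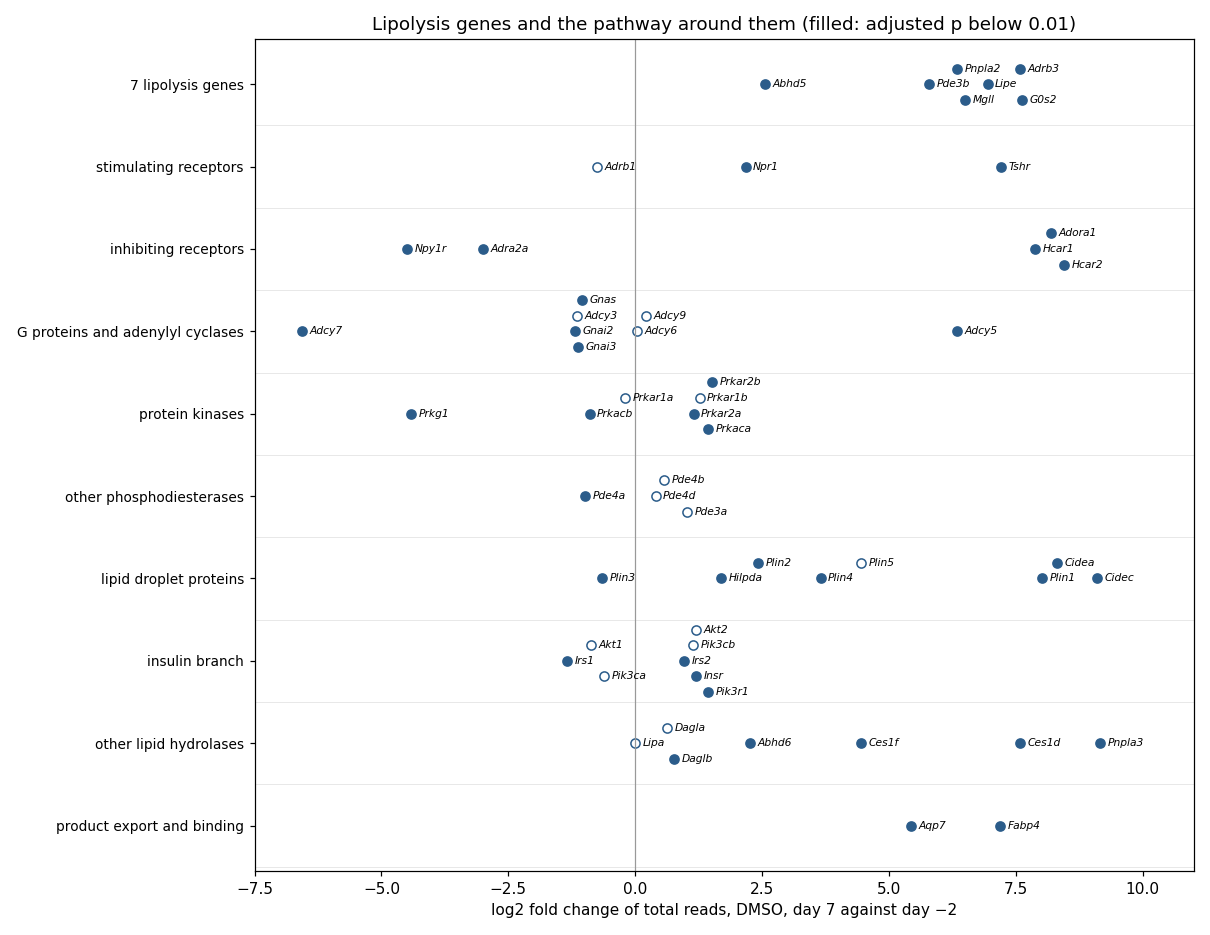
Log2 fold change of total reads at day 7 against day −2 in DMSO for the 7 lipolysis genes (top row) and the 52 tested genes of the pathway around them, grouped by role, filled where the adjusted p is under 0.01; vertical offsets within a row only separate labels. All 7 lipolysis genes lie right of 0, from 2.56 (Abhd5) to 7.63 (G0s2), whereas genes of signalling lie on both sides.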

How the data were processed

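Libraries were made with a 3′-end kit from 3T3-L1 cells labelled with 4-thiouridine. The authors demultiplexed the reads with bcl2fastq 2.17.1.14, mapped them to mm10 with SlamDunk and deposited raw counts per RefSeq 3′ untranslated region entry, 91830 entries in all, for all reads and for reads with at least 1 T-to-C conversion. Nothing was normalised before deposit. 6 library columns in each table matched no sample and were not used, nor were the authors' averages.

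Each gene was represented by the entry of its symbol with the highest mean total count. Shares over all entries count every entry tested, of which a gene can have several. Counts were tested with the quasi-likelihood test of edgeR 4.0.16 in R 4.3.3 (robust fit, TMM factors of the total counts also for labelled counts, minimum count 10, minimum total 15), with Benjamini-Hochberg adjustment over all 26563 entries tested in total reads and 10589 in labelled reads. Time courses were fitted on the 12 libraries of a treatment and called at an adjusted p under 0.01, treatments and interactions on 24 libraries and called under 0.1, the thresholds of the study. Levels and likeness used log2 values with a prior count of 2 where logs were taken. The 3 replicates are biological in the study's methods. Intervals on counts (95%) and the floor of 3 reads cover counting error only.

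The 7 genes, the pathway list and the markers were chosen with earlier results of these data known. Named genes were the 7, the 3 most like each and, per pathway role, the gene with the largest change at day 7 in DMSO. Alternatives were DESeq2 1.42.0, no filter, a single entry for each gene, blocking on the letter of the replicate, other sets of libraries in the fit, scaling by labelled reads and leaving out each replicate. Sequences came from mm10.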

Additional observations from a re-analysis of the deposited data

Results flagged for a closer look

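In all, 4 results stood out because the effect of ML-792 differed between days by the F-test of the interaction terms. In total reads these were G0s2 (edgeR adjusted p = 8.7e-05), Mgll (0.0369) and Lipe (0.0598), and in labelled reads G0s2 (0.0605). The log2 difference between ML-792 and DMSO is given here for days −2, 1, 3 and 7. For G0s2 in total reads it took the values −0.05, 2.95, 0.31 and 0.77, and for Mgll 0.53, 2.44, 1.57 and 0.92. Lipe had log2 differences of 0.43, 0.42, −0.56 and −0.10 on those days. Of these 4 results, only G0s2 in total reads passed whichever replicate was left out.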

How the results depend on the processing

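Most settings left the 7 genes where they were, and leaving out 1 replicate changed most. With the letters A, B and C left out in turn, the genes called in total reads numbered 4 at day 1 and 7 at days 3 and 7 in DMSO, 1 to 5 between days 3 and 7, 5 to 6 at day 1 with ML-792, 2 to 4, 2 to 4 and 1 to 5 for ML-792 against DMSO at days 1, 3 and 7, and 1 to 6 for the interaction. In labelled reads they numbered 0 to 2, 3 to 4 and 3 to 4 in DMSO, 1 to 3, 4 and 4 to 5 with ML-792, 0 to 2 for ML-792 against DMSO at day 1 and 0 to 1 for the interaction. Over all entries of total reads the calls ranged from 855 to 4828, 4018 to 9056 and 4552 to 9234 at days 1, 3 and 7 in DMSO, 426 to 3077 between days 3 and 7, 450 to 2186, 1297 to 4340 and 766 to 3373 for ML-792 against DMSO, and 445 to 3415 for the interaction. In labelled reads they ranged from 458 to 2262, 1482 to 3398, 1211 to 3081 and 11 to 45 in DMSO, 25 to 69, 31 to 98 and 12 to 97 for ML-792 against DMSO, and 7 to 39 for the interaction. The cause was not tested. Some small uncalled log2 values changed sign among these fits. The ML-792 difference of Pde3b ranged from −0.23 to 0.21 at day 1 and from −0.28 to 0.016 at day 3, that of Pnpla2 at day 7 from −0.10 to 0.19 (−0.090 without replicate A), that of Lipe at day 7 from −0.23 to 0.046, and the day 1 change of Adrb3 in DMSO from −0.95 to 0.034. In labelled reads at day 1 the ML-792 difference ranged from −0.20 to 0.82 for Abhd5 and from −0.75 to 0.33 for Lipe, and the change of G0s2 in DMSO from −0.43 to 1.70.

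Blocking on the letter (replicate block) gave 5 called genes for ML-792 at day 1 and 7 for the interaction. The day 7 difference of Pnpla2 was then −0.042. The entries called in total reads were 5628 at day 1 and 3969 between days 3 and 7 in DMSO, 3594, 5464 and 4841 for ML-792 and 5568 for the interaction. In labelled reads they were 62 between days 3 and 7, 259, 176 and 228 for ML-792 and 111 for the interaction. The interaction then also passed for Pnpla2 (0.00337), Pde3b (0.0532), Adrb3 (0.0652) and Abhd5 (0.0900), and at day 1 the ML-792 difference of Lipe (0.0529) and Abhd5 (0.0567), all edgeR adjusted p. Deviations of same-letter libraries from their condition means correlated with a mean of 0.191 in total reads (lowest −0.173, above 0.1 in 68 of 84 pairs). Those of other letters had a mean of −0.0939, which adds no separate evidence. Deviations from the mean of 3 libraries make it follow from the first value. In labelled reads 22 of 84 same-letter pairs were above 0.1. Libraries of a letter thus tended to deviate together in total reads, but not in every pair, and the labels do not say what a letter marks. DESeq2 called 6 genes for the interaction, 3552 entries between days 3 and 7, and in labelled reads 59 entries between days 3 and 7, 233, 181 and 206 for ML-792 and 152 for the interaction. With only the 6 libraries of a day, 2 genes were called for ML-792 at day 3 and 1 in labelled reads at day 1, with 1067 and 2148 entries at days 1 and 3 and 158 labelled entries at day 7. Scaled by labelled reads, 2 genes were called at day 1 in DMSO and 4 with ML-792, with 538, 1174, 1091 and 49 entries in DMSO at days 1, 3 and 7 and between days 3 and 7. No filter gave 2 genes in labelled reads at day 1 in DMSO, 1 entry for ML-792 at day −2 and 41 for the interaction. All 24 libraries in 1 fit gave 2 labelled genes at day 1 in DMSO and 1 with ML-792, and 39 entries between days 3 and 7. With 1 entry per gene, 4974 and 5271 of 13331 entries were called at days 3 and 7 in DMSO, against 8108 and 8666 of 26563 in the main fit. In total reads the calls were thus fewer, as fewer entries are tested, but a larger share. In labelled reads 1216, 2197 and 1923 were called, with fewer entries tested there too. The cause of the other changes was not tested either. Depth limits the labelled reads most, where Mgll and Adrb3 held too few for a test.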
